A study of Mus musculus with 6 samples.

Results

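Matrix metalloproteinases (MMPs), ADAMTS and ADAMTS-like (ADAMTSL) proteins and tissue inhibitors of metalloproteinases (TIMPs) were examined in the hearts of mice with chronic kidney disease (CKD). Every gene whose symbol is Mmp, Adamts, Adamtsl or Timp followed by a number was taken, which gave 48 of the 19505 named genes on the array: 21 Mmp, 18 Adamts, 5 Adamtsl and 4 Timp genes. The rule uses symbols and no measured values, although the families were chosen for description with earlier results of these data known. Mmp15, Mmp27 and Adamts2 were not analysed here.

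Hearts came from Balb/c mice, male and 8 weeks old at surgery per the study's methods, with 3 mice per group and 1 Affymetrix Clariom S array per mouse. CKD mice had 5/6 nephrectomy, in which part of the right renal cortex was electrocoagulated and the left kidney was taken out 2 weeks later. Sham mice had their abdomen opened and both kidneys left alone, so the groups shared strain and abdominal surgery but not the loss of kidney tissue. How often sham mice were operated on is not stated, so the number and timing of operations may also differ. The methods list a set of sham and CKD mice fed a normal diet for 8 weeks, and sets kept longer. The sources used here do not say which set gave these hearts, or how long after surgery they were collected. Levels are log2 values after robust multiarray averaging (RMA), so a difference of 1 is a doubling. Each probe set has its own brightness, so levels of different genes are not compared as amounts of RNA. They are ranked only to mark dim genes, and averaged or summed over marker lists only to compare arrays.

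MMPs are zinc-dependent enzymes that cut collagens, elastin, proteoglycans and other matrix proteins, and most are secreted as inactive proenzymes. ADAMTS enzymes are secreted relatives with thrombospondin repeats that cut proteoglycans, procollagens and von Willebrand factor, while ADAMTSL proteins share the repeats but lack the catalytic domain. TIMPs block the active site of MMPs. In the heart the balance of enzymes and inhibitors is known for its part in matrix turnover, dilatation and fibrosis.

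The promoters of the 5 genes that passed the criterion used below are shown because these genes carry the results and because many MMP genes are known targets of AP-1, the Fos and Jun transcription factor. RefSeq windows on GRCm38.p6 were matched for 33 of 48 members, giving 36 windows of 250 bases before a transcription start. Capitals mark the AP-1 motif TGACTCA, the TATA box TATAAA and the GC box GGGCGG, each searched on both strands, and sequences run 5′ to 3′ on the strand of the gene. Mmp12 has 2 annotated starts.
Mmp3 promoter, chr9:7445572-7445821, + strand: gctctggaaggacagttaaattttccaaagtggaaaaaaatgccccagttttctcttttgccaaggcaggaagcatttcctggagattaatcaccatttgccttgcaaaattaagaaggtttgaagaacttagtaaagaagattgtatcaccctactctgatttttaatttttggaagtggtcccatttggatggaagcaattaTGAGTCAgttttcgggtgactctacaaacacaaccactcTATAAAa
Mmp12 first promoter, chr9:7344147-7344396, + strand: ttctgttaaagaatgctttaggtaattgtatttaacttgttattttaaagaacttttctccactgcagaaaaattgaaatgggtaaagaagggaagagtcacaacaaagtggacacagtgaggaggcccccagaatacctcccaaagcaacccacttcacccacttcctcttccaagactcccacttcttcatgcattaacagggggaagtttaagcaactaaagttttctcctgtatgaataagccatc
Mmp12 second promoter, chr9:7347124-7347373, + strand: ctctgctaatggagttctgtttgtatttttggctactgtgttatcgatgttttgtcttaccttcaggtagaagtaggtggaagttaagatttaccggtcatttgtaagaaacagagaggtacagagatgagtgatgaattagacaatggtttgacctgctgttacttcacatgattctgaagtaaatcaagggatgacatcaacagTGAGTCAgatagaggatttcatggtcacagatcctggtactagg
Timp3 promoter, chr10:86300162-86300411, + strand: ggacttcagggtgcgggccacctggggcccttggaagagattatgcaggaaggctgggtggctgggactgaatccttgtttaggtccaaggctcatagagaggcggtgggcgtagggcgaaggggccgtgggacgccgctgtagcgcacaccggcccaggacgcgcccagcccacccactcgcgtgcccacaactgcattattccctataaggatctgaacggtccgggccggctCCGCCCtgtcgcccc
Adamts3 promoter, chr5:89883335-89883584, - strand: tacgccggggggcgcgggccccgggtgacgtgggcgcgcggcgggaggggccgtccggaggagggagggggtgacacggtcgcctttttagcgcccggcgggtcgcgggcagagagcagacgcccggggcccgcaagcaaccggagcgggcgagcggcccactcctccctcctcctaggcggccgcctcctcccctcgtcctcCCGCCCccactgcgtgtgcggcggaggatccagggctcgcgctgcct
Adamtsl5 promoter, chr10:80348449-80348698, - strand: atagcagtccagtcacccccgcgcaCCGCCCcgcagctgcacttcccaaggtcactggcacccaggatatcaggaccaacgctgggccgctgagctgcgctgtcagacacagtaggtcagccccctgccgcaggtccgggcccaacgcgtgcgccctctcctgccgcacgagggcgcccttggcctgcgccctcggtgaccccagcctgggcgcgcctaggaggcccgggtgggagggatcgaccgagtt

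The AP-1 motif was found at -46 from the start of Mmp3 and at -44 from the second start of Mmp12. Among the members it occurred in 7 of 36 windows (19.4%), against 4.46% of 32851 windows of all genes. All 7 belonged to MMP genes of the cluster on chromosome 9, where 7 of 11 windows (63.6%) held it, and the motif was in 0 of 13 ADAMTS and ADAMTSL windows and 0 of 4 TIMP windows. The TATA box was also in 63.6% of the cluster's windows, against 12.4% of all windows. The GC box had the other distribution, with 0 of 11 windows of the cluster, 10 of 13 ADAMTS and ADAMTSL windows (76.9%) and 3 of 4 TIMP windows (75%), against 32.7% of all windows. A match describes the letters in the window and does not show that a factor binds there.

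The arrays were alike in distribution, which RMA equalises, with median levels between 4.83 and 4.86, but not in every marker. Y-linked Eif2s3y read 4.02, 4.04 and 7.90 in CKD hearts and 4.24, 1.24 and 1.26 in sham hearts. Uty read 4.67, 4.29 and 7.97 in CKD and 4.48, 2.08 and 2.17 in sham hearts. Kdm5d read 3.97, 2.73 and 5.52 in CKD and 3.67, 1.96 and 1.89 in sham hearts. Sham 2 and sham 3 lay below sham 1 and the CKD hearts in these genes, although the methods give male mice. CKD 3 lay above all other hearts in them. All 3 passed the criterion used below as higher in CKD (3.07, 2.73 and 1.57), none with an adjusted limma p under 0.05. Sham 2 and sham 3 were also the high sham hearts for Mmp12, Mmp8 and Timp1, and CKD 3 was the highest array for Mmp3, Timp2, Timp3 and Timp4. A link of these members with the Y-linked genes was not tested. Mean levels of 11 macrophage markers were 9.15, 8.0 and 8.60 in CKD hearts and 8.30, 9.76 and 9.58 in sham hearts, and the neutrophil list gave 7.37, 5.74 and 5.22 in CKD hearts and 4.92, 7.78 and 7.68 in sham hearts. Atrial markers averaged 8.42, 8.74 and 10.97 in CKD hearts and 9.12, 7.44 and 6.69 in sham hearts. Cardiac muscle markers, which check the labelled tissue, averaged 17.39 to 17.66 in CKD hearts and 17.47 to 17.72 in sham hearts. Sham 1 lay more than 1 log2 unit from both other sham hearts in 5 members (Mmp12, Mmp14, Mmp8, Timp1 and Timp3) and in 2.6% of all genes. Each CKD heart lay so far from both other CKD hearts in 2 members, and in 3.45%, 1.69% and 1.02% of all genes for CKD 1, CKD 2 and CKD 3, so that over all genes CKD 1 stood apart most often. In whole hearts, fewer cells of a type and less RNA per cell cannot be told apart.

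A gene was called changed at a fold change over 1.5 in either direction and an unadjusted limma p under 0.05. By this criterion 3 of 48 members were higher in CKD hearts (Mmp3, Timp3 and Adamts3) and 2 were lower (Mmp12 and Adamtsl5), while 43 did not pass. Among all genes 3.13% were called higher, 3.19% lower and 6.32% either way, beside 10.4% of the members. After Benjamini-Hochberg adjustment in limma over all genes, 0.0103% of genes (2) and none of the members had an adjusted p under 0.05, and 5 members had an unadjusted p under 0.05. The median log2 difference of the members was 0.04 (CKD minus sham), against -0.0033 for all genes, with a range of -3.39 to 1.74 (the plot of differences by family).

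**Figure D1:**
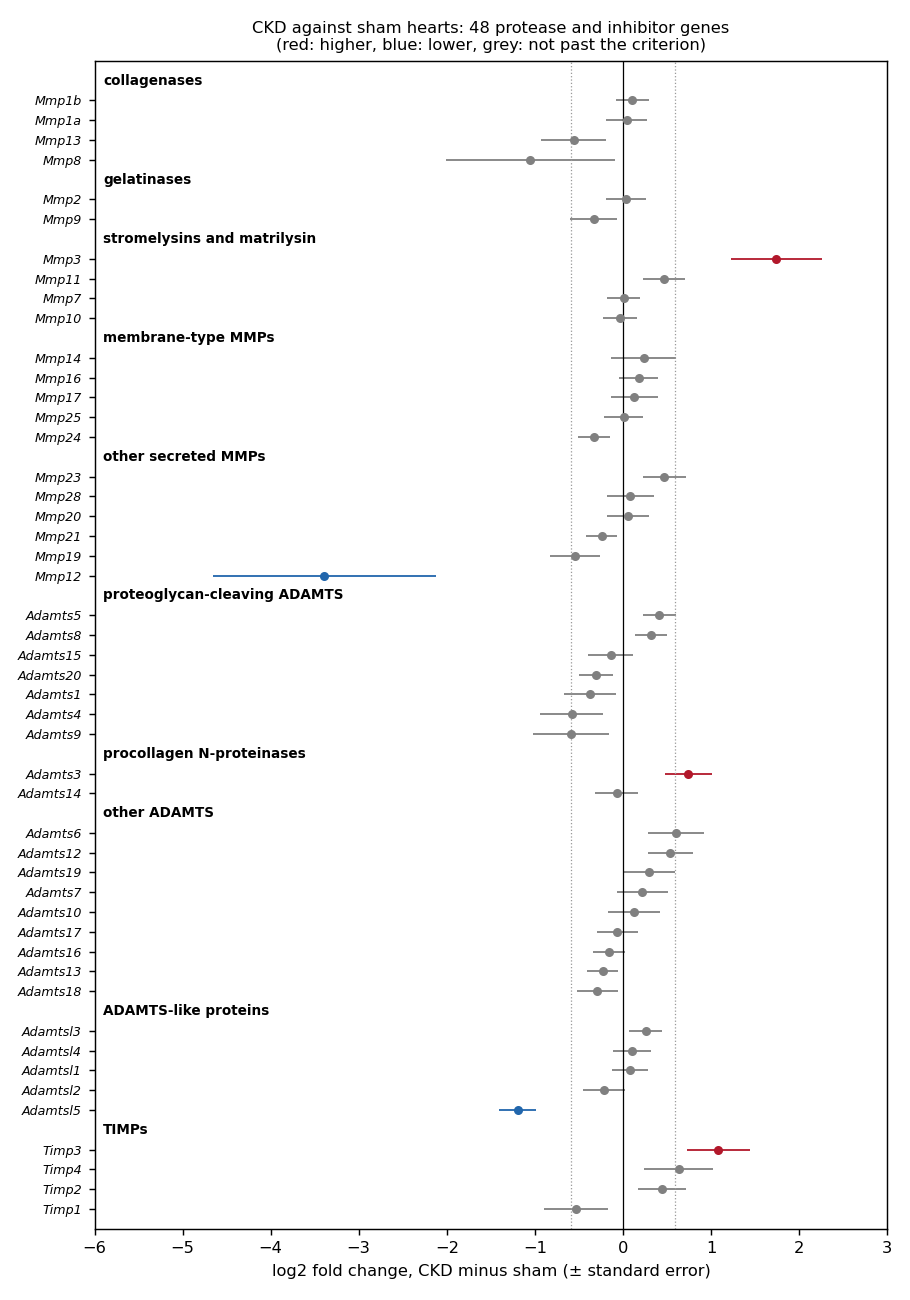
Log2 difference of each of the 48 members between CKD and sham hearts (CKD minus sham), grouped by family, with the standard error of the limma fit (n = 3 mice per group). Mmp3, Timp3 and Adamts3 lie on the higher side and Mmp12 and Adamtsl5 on the lower side of the criterion, and apart from Mmp8 (-1.05) the other members lie within 1 unit of 0.

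Mmp3 (stromelysin-1), which cuts proteoglycans, laminin and fibronectin and activates other proMMPs, was higher in CKD hearts. It read 7.02, 5.82 and 8.25 in CKD hearts and 4.88, 5.55 and 5.44 in sham hearts. Every CKD heart was above every sham heart, but CKD 2 lay only just above sham 2. The log2 difference was 1.74 ± 0.52 (SE, n = 3 each), a 3.34-fold higher level, with an adjusted p = 0.379 in limma. CKD 3, the highest array for Mmp3, also had the highest mean levels of 6 marker lists: atrial muscle (10.97), smooth muscle (9.71), fat cells (8.40), mesothelium (6.03), fibroblasts (10.94) and mast cells (5.0). Without it Mmp3 was still past the criterion at 1.13. A link between Mmp3 and these lists was not tested. Of the related enzymes, Mmp10 (stromelysin-2), Mmp11 (stromelysin-3) and Mmp7 (matrilysin) did not pass, with differences of -0.03, 0.47 and 0.01.

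Mmp12 (macrophage elastase), which cuts elastin and is made mainly by macrophages, was lower in CKD hearts by the criterion. It read 6.45, 5.31 and 4.86 in CKD hearts and 5.29, 10.97 and 10.54 in sham hearts. Sham 1 lay among the CKD hearts and only sham 2 and sham 3 were high, so the groups overlapped. The log2 difference was -3.39 ± 1.26 (SE, n = 3 each), with an adjusted p = 0.466 in limma, and an exact permutation test (two-sided) gave p = 0.3, where 0.1 is the smallest that 3 against 3 mice allows. Without sham 1 the difference was -5.22 with an adjusted p = 0.0111 in limma, the lowest over 18 alternatives, of which the highest was 0.998, and without sham 2 and sham 3, a choice made after seeing the data, it was 0.25 with the other sign. Macrophage markers were higher on the same 2 sham arrays (9.76 and 9.58, against 8.30 in sham 1), and their part in the result was not tested.

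Of the other MMP genes none passed. Mmp8, the neutrophil collagenase, read 6.43, 4.63 and 3.88 in CKD hearts and 3.63, 7.09 and 7.38 in sham hearts, with a difference of -1.05 (adjusted p = 0.807, limma). As for Mmp12, sham 2 and sham 3 were the high sham hearts, and all 3 CKD hearts lay between them and sham 1. The difference depended on single arrays. It was -2.26 without sham 1, past the criterion as lower, and -0.53, -0.38 and -0.50 without sham 2, sham 3 or CKD 3, not past it. Without both sham 2 and sham 3, a choice made after seeing the data, it was 1.35 with the other sign, and with CKD 3 also left out it was 1.9, past the criterion as higher. The neutrophil markers, a list that does not hold Mmp8, were likewise higher in sham 2, sham 3 and CKD 1 than in the other hearts (the plot of leukocyte markers), and their part in the result was not tested. Among the remaining collagenases and secreted MMPs, Mmp19 (-0.55) and Mmp28 (0.08) overlapped between the groups.

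**Figure D2:**
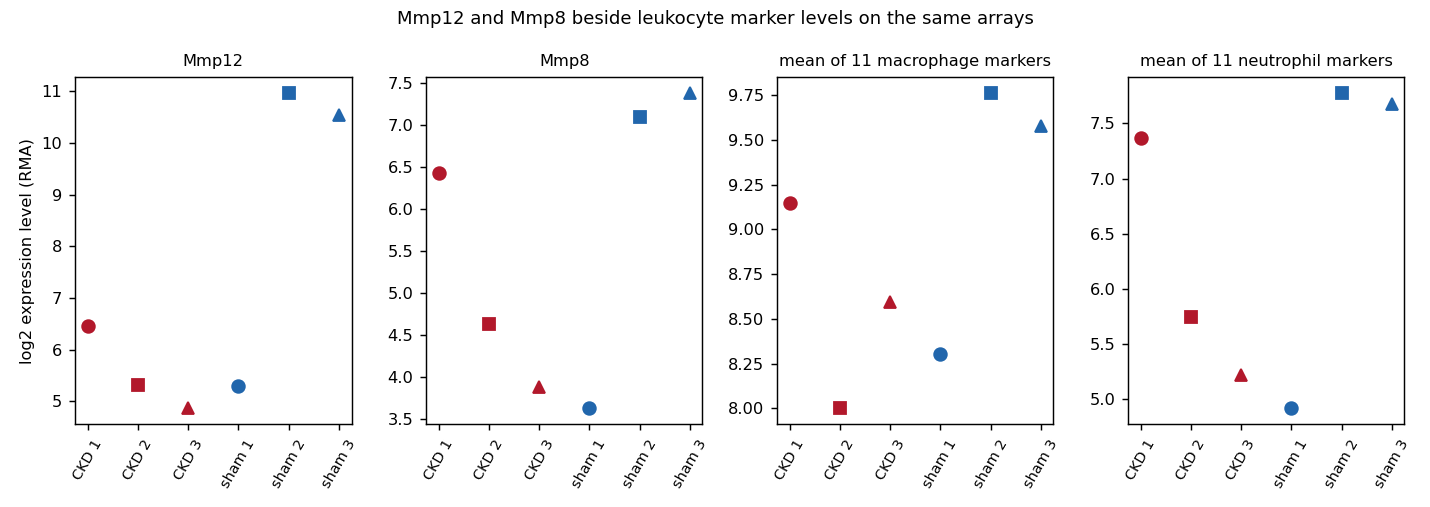
Log2 levels of Mmp12 and Mmp8 and mean levels of the macrophage and neutrophil marker lists on each of the 6 arrays, CKD hearts and then sham hearts. Sham 2 and sham 3 are the arrays with the highest Mmp12 (10.97 and 10.54), Mmp8 (7.09 and 7.38) and macrophage markers (9.76 and 9.58).

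The gelatinases Mmp2 and Mmp9, which cut denatured collagen and basement membrane collagen, did not pass. Mmp2 read 10.67, 11.37 and 11.11 in CKD hearts and 10.87, 11.17 and 11.01 in sham hearts, a difference of 0.03 ± 0.23 (SE). Mmp9 read 3.32, 3.40 and 2.99 in CKD hearts and 3.01, 3.8 and 3.9 in sham hearts, a difference of -0.33 ± 0.27 (SE). In both genes the groups overlapped. Mmp14, the membrane-type enzyme that activates proMMP2 together with TIMP2, read 5.69, 6.24 and 6.09 in CKD hearts and 4.86, 6.22 and 6.24 in sham hearts. Its difference of 0.23 ± 0.36 (SE, adjusted p = 0.9, limma) was measured with sham 1 as the lowest array and the others between 5.69 and 6.24.

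Mmp12 and Mmp3 belong to the MMP cluster of chromosome 9, in which the measured genes follow in the order Mmp13, Mmp12, Mmp1b, Mmp3, Mmp1a, Mmp10, Mmp8, Mmp20 and Mmp7. Within it Mmp12 was called lower and Mmp3 higher, and the other 7 genes did not pass. Mmp13 (collagenase-3) had a difference of -0.56, while Mmp1a, Mmp1b, Mmp10, Mmp20 and Mmp7 lay between -0.03 and 0.11. Of all members, 14 had a mean level under the 25th percentile of all genes (3.43), where differences can be compressed and no detection calls were used here, and Mmp1a, Mmp1b, Mmp10 and Mmp7 were among them.

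**Figure D3:**
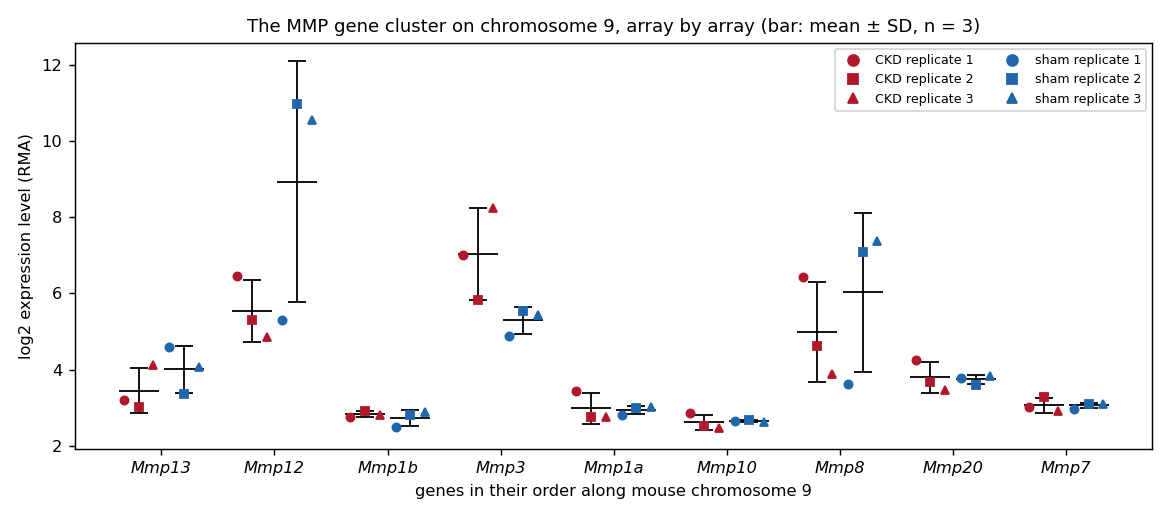
Log2 levels of the 9 measured MMP genes of the chromosome 9 cluster in their order along the chromosome, with 3 CKD and 3 sham hearts each. Mmp3 has its CKD hearts above its sham hearts, and Mmp12 has 2 sham hearts far above the other 4 arrays.

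Adamts3, a procollagen N-proteinase that also activates VEGF-C, was higher in CKD hearts. It read 4.59, 4.0 and 4.18 in CKD hearts and 3.02, 3.66 and 3.87 in sham hearts. All CKD hearts lay above all sham hearts, with CKD 2 close to sham 3. The log2 difference was 0.74 ± 0.27 (SE, n = 3 each), a 1.67-fold higher level, with an adjusted p = 0.454 in limma. Its call was lost without CKD 1 and without sham 1, and the gene was not tested once the dimmest 50% of genes were left out.

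Of the 7 proteoglycan-cleaving ADAMTS genes none passed, and their median difference was -0.31. Adamts1, an early-response member that cuts versican and aggrecan, read 7.48, 7.89 and 7.28 in CKD hearts and 7.30, 8.24 and 8.23 in sham hearts. Its difference was -0.37 ± 0.29 (SE, adjusted p = 0.765, limma), and sham 1 lay with the CKD hearts. Adamts5, another aggrecanase, had all 3 CKD hearts above all sham hearts with a difference of 0.41 (adjusted p = 0.556, limma). Adamts4 (-0.58) and Adamts9 (-0.59), which also cut aggrecan and versican, overlapped between the groups and did not pass. The 9 other ADAMTS genes, which include Adamts13, Adamts10 and Adamts17, had a median difference of 0.13, from -0.29 for Adamts18 to 0.61 for Adamts6, and none passed. Adamts14, the other measured procollagen N-proteinase, differed by -0.07.

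Adamtsl5, an ADAMTS-like protein that binds fibrillin microfibrils, was lower in CKD hearts. It read 8.19, 8.18 and 8.71 in CKD hearts and 9.62, 9.50 and 9.55 in sham hearts. The CKD hearts all lay below the sham hearts, and the sham hearts were close together. The log2 difference was -1.20 ± 0.21 (SE, n = 3 each), a 2.29-fold higher level in sham, with an adjusted p = 0.285 in limma. It was past the criterion under all 18 alternatives that gave a value per gene, between -1.37 and -1.11 when single arrays were left out. The other 4 ADAMTSL genes did not pass.

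Timp3, the matrix-bound inhibitor that also blocks ADAM17 and aggrecanases, was higher in CKD hearts. It read 9.28, 9.64 and 10.33 in CKD hearts and 7.94, 9.06 and 9.0 in sham hearts. All CKD hearts lay above all sham hearts, with CKD 1 near sham 2 and sham 1 the lowest. The log2 difference was 1.08 ± 0.36 (SE, n = 3 each), a 2.12-fold higher level, with an adjusted p = 0.443 in limma. Without CKD 3, the array with the highest levels of the 6 marker lists named for Mmp3, the difference was 0.79 and the call was lost. A link between Timp3 and these lists was not tested.

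The other 3 TIMPs did not pass. Timp1, the inducible inhibitor, read 4.41, 4.03 and 3.87 in CKD hearts and 3.71, 5.04 and 5.16 in sham hearts, so the groups overlapped at sham 1, and the difference was -0.53 ± 0.37 (SE). It was -1.0 without sham 1, past the criterion, but -0.33 without sham 2 and -0.27 without sham 3. Without both sham 2 and sham 3 the sign turned (0.39, and 0.51 with CKD 3 also left out), and neither value passed. Timp2 read 11.27, 11.86 and 12.32 in CKD hearts and 11.45, 11.47 and 11.21 in sham hearts, a difference of 0.44 ± 0.27 (SE). Timp4, the inhibitor best known from heart tissue, read 10, 9.65 and 11.18 in CKD hearts and 9.14, 9.83 and 9.96 in sham hearts, a difference of 0.63 ± 0.39 (SE). In both genes CKD 3 was the highest array. The difference between Timp3 and the other TIMPs was not tested.

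**Figure D4:**
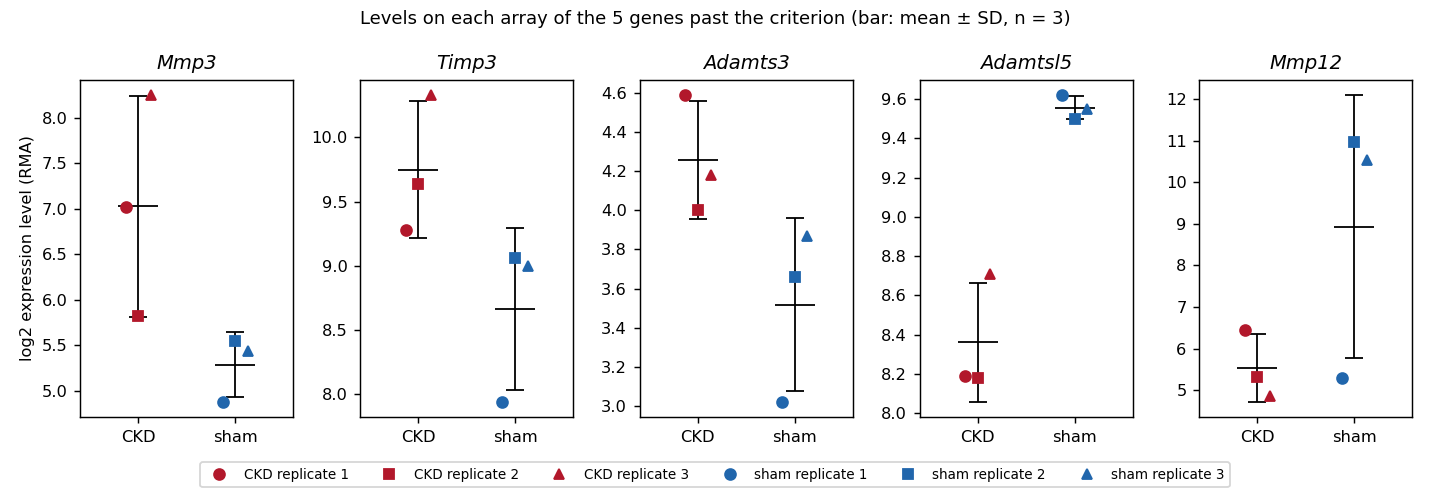
Log2 levels of the 5 members past the criterion on each array, 3 CKD hearts and then 3 sham hearts, with group means. Groups do not overlap for Mmp3, Timp3, Adamts3 and Adamtsl5, while for Mmp12 sham 1 (5.29) lies among the CKD hearts.

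The groups did not overlap in 12 of 48 members (25%), of which 7 had all CKD hearts higher and 5 all CKD hearts lower. Among all genes 6.93% had all CKD hearts higher, 6.71% lower and 13.6% either way. Beside the called members, Adamtsl3 (0.26), Mmp23 (0.47), Adamts5 (0.41) and Adamts8 (0.32) had all CKD hearts higher, and Mmp24 (-0.33), Adamts13 (-0.23), Mmp21 (-0.24) and Adamts20 (-0.31) all lower. Adamts13 is the protease of von Willebrand factor and Mmp24 a membrane-type MMP. Their differences were under the fold limit, and Mmp24, Adamts13, Mmp21 and Adamts8 had mean levels under the 25th percentile of all genes.

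Leaving out single arrays moved the 5 called members by different amounts. Mmp3 stayed between 1.13 and 2.35 and Timp3 between 0.72 and 1.32, both on the higher side, and Adamts3 between 0.49 and 0.92. Mmp12 ranged from -5.22 to -2.38 and lost its call without CKD 2, CKD 3, sham 2 or sham 3.

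**Figure D5:**
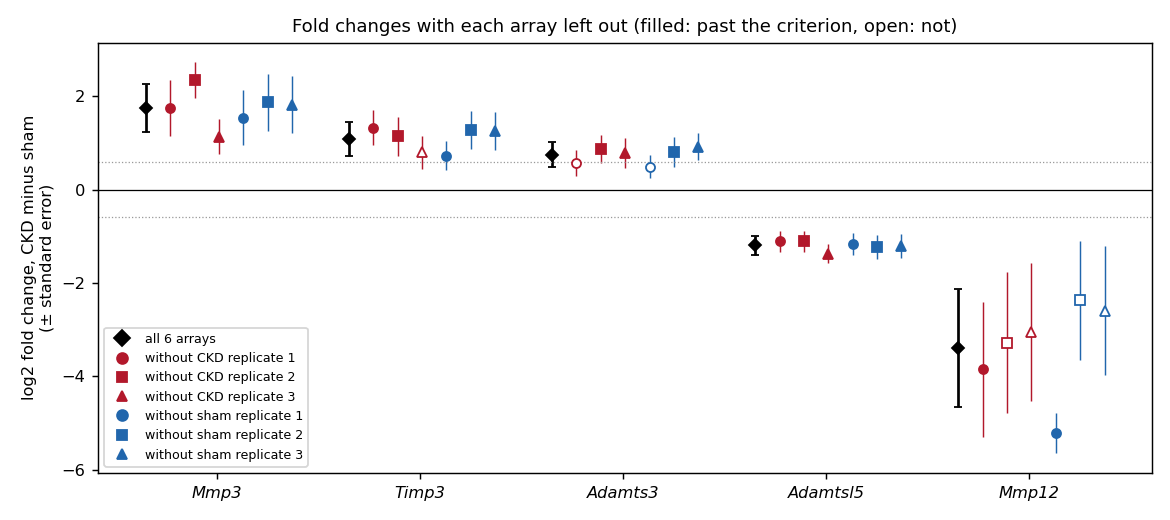
Log2 difference (CKD minus sham) of the 5 called members when each array is left out in turn, with the value over all 6 arrays. Adamtsl5 stays within -1.37 and -1.11, and Mmp12 moves most.

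Genes that act around these enzymes were taken from 5 lists of 96 measured genes in all, of which 3 were higher and 4 lower. Among 27 activators, inhibitors and clearance receptors of MMPs, Spock2 (testican-2), a proteoglycan of the extracellular matrix, was 1.13 ± 0.40 (SE) higher (adjusted p = 0.453, limma) and Lrp1, the endocytic receptor that clears MMPs and TIMPs, 0.70 ± 0.25 (SE) higher (adjusted p = 0.453, limma). Of 11 ADAM genes, Adam23 was 0.89 ± 0.24 (SE) higher (adjusted p = 0.346, limma), and it lacks a working catalytic site. Of 16 other matrix-degrading enzymes, mostly proteases, the lysosomal cathepsins Ctsb (-0.78 ± 0.24, SE) and Ctss (-1.38 ± 0.61, SE) were lower (adjusted p = 0.395 and adjusted p = 0.541, limma). Ctss, like Mmp12, read highest in sham 2 and sham 3 (11.58 and 11.50). None of 27 noncollagenous substrates passed. Of 15 transcription factors, mostly AP-1 and ETS factors, Fosl2 (-0.73 ± 0.25, SE) and Etv5 (-0.77 ± 0.27, SE) were lower (adjusted p = 0.448 and adjusted p = 0.453, limma). Fosl2 is a Fos relative of AP-1 and Etv5 an ETS factor. Beside them stand 3.13% higher and 3.19% lower calls among all genes.

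Some markers of other cell types also passed the criterion, beside 6.32% of all genes either way. None of them had an adjusted limma p under 0.05. Of 11 macrophage markers 3 were lower and none higher (median -0.67), with summed levels of 88.00 to 100.63 in CKD hearts and 91.33 to 107.38 in sham hearts. Of 11 neutrophil markers 1 was lower (median -0.43), with sums of 57.39 to 81.01 in CKD hearts and 54.09 to 85.54 in sham hearts. Of 12 smooth muscle markers 3 were higher (median 0.47), with sums of 110.33 to 116.56 in CKD hearts and 105.10 to 110.26 in sham hearts. Of 10 atrial markers 4 were higher and 1 lower (median 1.05), with sums of 84.17 to 109.70 in CKD hearts and 66.94 to 91.16 in sham hearts. Of 12 fat cell markers 1 was higher (median 0.42), of 9 mesothelial markers 2 (median 0.40) and of 10 mast cell markers 1 (median 0.13). All 12 fat cell and all 9 mesothelial markers had a higher mean in CKD hearts, though the summed levels of the groups overlapped in both lists. Of 11 fibroblast markers 1 was lower (median 0.09), and 0 of 12 cardiac muscle markers and 0 of 11 endothelial markers passed. The cardiac muscle markers Myl2, Tnnt2, Mb and Myoz2 read 19.84 to 19.95, beside highest levels of 19.91 to 20 on the arrays. So near the top of the scale they could hardly have passed. The part of these cells in the differences of the members was not tested.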

How the data were processed

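Hearts of 3 CKD and 3 sham mice were hybridised singly to Clariom S arrays, with cDNA from 250 ng of RNA. The authors deposited log2 levels made by RMA (no version is given in the sources used here), which corrects background, equalises array distributions and summarises probe sets. Differences of dim genes can be compressed, and no detection calls were used. Of 22206 probe sets, 19572 had 1 symbol in the platform annotation, 2634 were unnamed and 0 had several. The brightest probe set was kept for 55 genes with more than 1, none of them a member, leaving 19505 genes. The contrast of CKD minus sham was fitted over all genes without covariates, using limma 3.58.1 (lmFit, eBayes; R 4.3.3), and p-values were adjusted by Benjamini-Hochberg. The criterion, a fold change over 1.5 and unadjusted p under 0.05, follows the limits in the study's methods. The fit was tested on simulated data. Figures were drawn with matplotlib 3.10.9 in Python 3.11.15.

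Members and lists were chosen with earlier results of these data known. Values per array are given for members past the criterion, all Timp genes, Mmp2, Mmp9, Mmp14 and Adamts1, and Mmp8 was added after its values were seen. Alternatives were the methods' t-test, other eBayes options, array weights, other normalizations, filters on dim genes, the mean of probe sets, a replicate block, leaving out arrays, and other limits. The number of arrays limits the precision, with a median SE of 0.25 for the members.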

Additional observations from a re-analysis of the deposited data

How the results depend on the processing

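All 5 called members kept their calls under repeated quantile normalization, cyclic loess, median centring, the mean of probe sets and the filter on the dimmest 25% of genes. These settings could move the calls little. No member had more than 1 probe set, RMA had already equalised the distributions, and no called member was among the dimmest 25% of genes. Over the 18 alternatives, these settings included, the 5 genes had 89 values. Of these, 74 kept direction and call, 13 lost the call and 2 changed sign. The 43 other members had 733 values, of which 32 newly passed and 69 changed sign. With the methods' t-test, 307 genes were higher and 318 lower, with 0 and 1 members and 1 and 1 neighbours of the pathway. With array weights, 1023 genes were higher and 1028 lower, with 6 and 8 members and 8 and 8 neighbours. Trend and robust eBayes left 1 member lower. The t-test kept the call of Adamtsl5 alone, and array weights lost Adamts3 and added 10 members, among them Timp1, Timp2 and Timp4. At a fold over 2, 158 genes were higher and 128 lower, with 1 and 1 neighbours. At an adjusted limma p under 0.05, 2 genes were higher and 0 lower, with 0 members and 0 neighbours either way. Without the dimmest 50% of genes the members' median was 0.23.

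Leaving out 1 array gave 472 to 1091 genes higher (most without CKD 1) and 497 to 957 lower (most without sham 1). It gave 2 to 6 members higher, 1 to 7 lower, 2 to 5 neighbours higher and 1 to 11 lower. After seeing the data, sham 2 and sham 3 were also left out, which gave an Mmp12 difference of 0.25 and 1 neighbour lower. Leaving out CKD 3 as well gave 0.59 for Mmp12, 284 genes higher and 259 lower, 5 members higher and 0 neighbours lower. A lone sham array is assumed there to vary like the CKD arrays. The neighbours' counts were added after seeing the data. The cause of these changes was not tested.

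Deviations from the group means correlated at -0.18, -0.03 and -0.19 between same-numbered arrays, and at -0.16 to 0.25 between the others. Deviations within a group of 3 depend on each other, so these values cannot exclude that mice were paired. A figure legend of the study speaks of 3 pairs of sham and CKD mice, without saying how they were paired. The replicate block gave 602 genes higher and 599 lower and kept all 5 member calls.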
